A study of Mus musculus with 2 samples.

Results

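Foxd1, Tbx18, Meis1, Meis2, Ebf1, Ebf2, Zeb2 and Zfp536 are 8 transcription factors known from the kidney stroma, the connective tissue that surrounds the developing nephrons and collecting ducts. They were chosen by gene symbol, as 8 of the 32285 genes of the series, and their transcripts were followed across the types of nuclei of the mouse kidney, across the zones of the stroma and across 2 ages. Nuclei of whole kidneys had been sequenced in droplets, with 1 library at E18.5, late in gestation, and 1 library at postnatal day 3 (P3). In the E18.5 library the mice carried floxed alleles of Myc and Mycn (Mycf/f;Mycnf/f) with no Cre on a mixed background, and in the P3 library they were wild type C57BL/6J. Each library pooled kidneys of several males and females, so that no animal can be followed and no value has a replicate. The effects of age, of genotype, of strain, of the library and of the release of the counting software cannot be told apart, since all changed together.

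The stroma of the kidney is patterned from the outside in. Foxd1, a forkhead factor, marks the stromal progenitors of the nephrogenic zone at the rim, whose descendants include the interstitium, the mesangium, the pericytes and the renin cells, and it is also known from podocytes. Tbx18, a T-box factor, marks the mesenchyme that forms the smooth muscle of the ureter. Meis1 and Meis2 are homeodomain factors that bind DNA together with Pbx proteins. Ebf1 and Ebf2 are helix-loop-helix factors of the COE family, of which Ebf1 is best known from B cells and Ebf2 from the precursors of brown fat. Zeb2 is a zinc finger repressor of epithelial genes, and Zfp536 is a zinc finger protein described as a repressor of neuronal differentiation.

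After quality limits and removal of called doublets, 17778 nuclei were analyzed at E18.5, with a median of 2923 unique molecular identifiers (UMIs) per nucleus, and 9788 at P3, with a median of 4054. Levels are given as CPM, the UMIs of a gene per 1e+06 UMIs of all genes in a group of nuclei, with exact 95% Poisson intervals. These intervals, and those of the ratios and shares, cover counting error only. Clusters were named from marker genes outside the 8 factors, and 4985 nuclei (28.04%) at E18.5 and 3029 (30.9%) at P3 were stroma-like. Of 11 interstitium markers, 10 were at least 2-fold higher in these nuclei than in all other named nuclei at E18.5, with Lum as the exception at 1.69-fold, and 11 of 11 at P3. All 8 proximal tubule markers were at least 2-fold lower at both ages. The 2 libraries shared 69 barcodes, and 2885 and 2705 nuclei stayed unnamed, most of them in clusters with low UMI counts or hemoglobin transcripts.

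On the mm10 genome, Foxd1 (ENSMUSG00000078302) is a gene of a single exon at chr13:98354242-98359305 on the plus strand, 5.064 kb long. Tbx18 (ENSMUSG00000032419) spans chr9:87702800-87731260 on the minus strand. Meis1 (ENSMUSG00000020160) lies at chr11:18879817-19018985 and Meis2 (ENSMUSG00000027210) at chr2:115863064-116065839, both on the minus strand. Ebf1 (ENSMUSG00000057098) covers 390.775 kb of the plus strand at chr11:44617317-45008091, and Ebf2 (ENSMUSG00000022053) is at chr14:67233292-67430918 on the same strand. Zeb2 (ENSMUSG00000026872) and Zfp536 (ENSMUSG00000043456) are on the minus strand, at chr2:44983632-45117395 and chr7:37472135-37773641. Exons make up 100% of Foxd1, 16.6% of Tbx18 and between 2.50% (Ebf1) and 14.9% (Zeb2) of the other 6 genes. A nucleus holds much unspliced RNA, so that the CPM of a short gene and of a long gene were not compared with each other here, and each gene was compared only with itself between groups of nuclei.

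Meis1 and Meis2, and likewise Ebf1 and Ebf2, are paralogs whose reads could in principle be mixed up. The longest stretch of identical coding sequence is printed below for both pairs, because it sets how far a read could match both genes. For Meis1 and Meis2 it is 23 bases, at chr11:18885613-18885635 and chr2:115868765-115868787, and for Ebf1 and Ebf2 it is 17 bases, at chr11:44907918-44907934 and chr14:67389627-67389643 (mm10, read on the strand of the gene).
Meis1 and Meis2: agaagaatagtgcagcccatgat
Ebf1 and Ebf2: atcaaagccatcagccc
No pair of these paralogs, nor of either Ebf gene with Ebf3, shared a coding run of 31 bases. Untranslated exons and introns were not compared, so whether reads from them could match both genes is not shown.

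The promoters of the 8 factors were searched on both strands for short motifs of their own families. The letters used were TGACAG for MEIS, TGATTGAC for PBX with MEIS, TCCC and GGGA with 2 free bases between them for EBF, CACCTG for ZEB, TGTTTAC for forkhead and AGGTGTGA for T-box factors. RefSeq promoters (GRCm38.p6, 250 bases before to 50 after a gene's start) were on hand for 7 of the 8 genes, in 11 entries, and only the MEIS letters were found, once in Foxd1 and once in Tbx18. The same letters occur in 19.2% of 32851 mouse promoters of this length, against 0.770%, 0.904%, 20.2%, 3.65% and 1.28% for the other motifs in the order above. Both windows are shown without their last 20 bases, 5′ to 3′ on the strand of the gene, with the match in capitals. In Foxd1 (chr13:98353995-98354274) the match ran from 50 to 45 bases before the start, and in Tbx18 (chr9:87731231-87731510) from 19 to 24 bases after it. A match of 6 letters is a description of the sequence and not a binding site.
Foxd1: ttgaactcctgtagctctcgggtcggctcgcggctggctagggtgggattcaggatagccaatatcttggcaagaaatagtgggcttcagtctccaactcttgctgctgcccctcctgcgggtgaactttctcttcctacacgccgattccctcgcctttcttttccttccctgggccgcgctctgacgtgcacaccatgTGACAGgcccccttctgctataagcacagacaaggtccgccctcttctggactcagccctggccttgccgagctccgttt
Tbx18: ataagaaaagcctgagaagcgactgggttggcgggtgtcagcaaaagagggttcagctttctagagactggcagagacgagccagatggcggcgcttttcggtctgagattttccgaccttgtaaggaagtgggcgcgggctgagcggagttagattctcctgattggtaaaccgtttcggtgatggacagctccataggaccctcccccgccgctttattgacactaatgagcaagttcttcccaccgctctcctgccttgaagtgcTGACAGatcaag

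The 8 factors were first compared between stroma-like nuclei and all other named nuclei. Of the 8, 7 were at least 2-fold higher in the stroma at both ages, all but Foxd1. Among all genes with at least 10 UMIs, 8.7% were that much higher at E18.5 and 12.2% at P3, and among genes of at least 10 CPM in either group 6.65% and 10.2% were. The median gene was lower in the stroma by a log2 difference of -0.10 at E18.5 and -0.13 at P3, which adds to each ratio given here if the median is taken as the reference. The 8 were chosen as factors known from the kidney stroma, with earlier results of these data known. The count of 7 therefore follows in part from the choice, and so may later counts set against all genes. With 1 library at each age there is no test of these ratios.

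Zfp536 had the highest ratio of the 8 at both ages. It stood at 446 CPM in stroma-like nuclei against 25.8 CPM in the other named nuclei at E18.5, a ratio of 17.3 [95% interval 16.13-18.53], and at 354 against 14.6 CPM at P3, a ratio of 24.3 [21.8-27.2]. Its transcripts were thus scarce outside the stroma. Ebf2 rested on few UMIs, with 378 in stroma-like nuclei at E18.5 and 444 at P3. It was 10.5-fold higher there [8.19-13.5] at E18.5, with 22.9 against 2.18 CPM, and 12.7-fold higher [9.68-17.1] at P3, with 31.2 against 2.45 CPM. All P3 nuclei together held 947 Ebf2 UMIs, and with unnamed nuclei among the others the P3 ratio was 1.99.

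Ebf1 and Zeb2 were many times higher in the stroma than elsewhere. Ebf1 was at 1875 CPM in stroma-like nuclei and 218 CPM in the others at E18.5, 8.60-fold higher [8.39-8.82], and at 2258 against 365 CPM at P3, 6.19-fold higher [6.04-6.34]. Zeb2 was at 2452 against 403 CPM at E18.5, 6.08-fold higher [5.97-6.20], and at 3273 against 458 CPM at P3, 7.14-fold higher [6.99-7.29]. Both genes also had a class outside the stroma with a high level, endothelium-like nuclei for Ebf1 and leukocyte-like nuclei for Zeb2.

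Meis1 was 6.60-fold higher in the stroma at E18.5 [6.44-6.77], with 1552 against 235 CPM, and 12.4-fold higher at P3 [11.9-12.8], with 2011 against 163 CPM. Meis2, its paralog, was less restricted, with 3204 against 1597 CPM at E18.5, a ratio of 2.01 [1.98-2.03], and 3529 against 1039 CPM at P3, a ratio of 3.40 [3.35-3.45]. The E18.5 ratio of Meis2 lay at the 2-fold limit and was under it in 5 alternative settings, with 1.93 as the lowest value. The nephron progenitor-like nuclei, in which Meis2 was high and Meis1 second to the stroma, were named at E18.5 and not at P3. At P3, 760 nuclei led by Eya1 stayed unnamed and are not among the other nuclei in either P3 ratio. Over the settings run, the P3 ratio of Meis1 was between 6.23 and 38.3.

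Tbx18 was rare, with 121 UMIs in the stroma at E18.5 and 86 at P3. Its level was 7.32 CPM against 1.17 CPM in the other nuclei at E18.5, 6.23-fold higher [4.35-9.07], and 6.05 against 0.633 CPM at P3, 9.55-fold higher [5.48-17.8]. Foxd1 was the exception among the 8. It had 667 UMIs in stroma-like nuclei at E18.5 and 116 at P3. Its ratio was 1.56 [1.41-1.73] at E18.5, with 40.3 against 25.8 CPM. At P3 the level of 8.16 CPM could not be told from the 8.44 CPM of the other nuclei, with a ratio of 0.966 [0.762-1.22]. Podocyte-like nuclei held 148 of the Foxd1 UMIs of these other nuclei at P3.

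**Figure D1:**
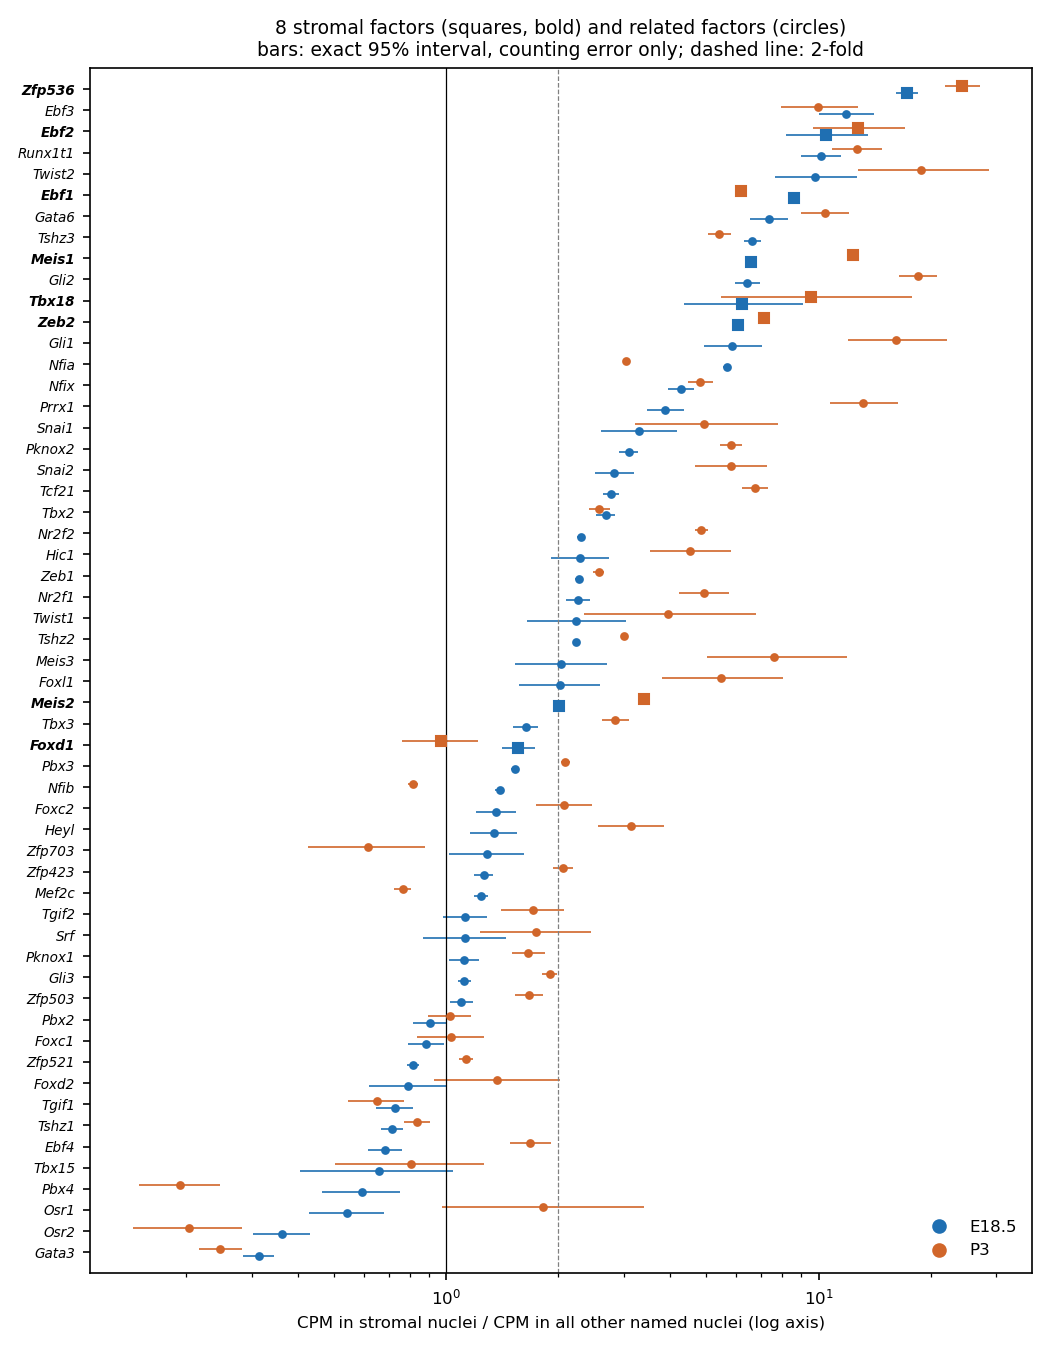
Ratio of the CPM in stroma-like nuclei to that in all other named nuclei for the 8 factors (squares) and for paralogs, partners and other mesenchymal regulators (circles), on a log axis, at E18.5 (blue) and P3 (orange). Points are the ratios of 1 library each, bars are exact 95% intervals of counting error, and the dashed line marks 2-fold; of the 8, Zfp536 is highest at 17.3 and 24.3, and Foxd1 alone is below the line at both ages.

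Shares of nuclei with a UMI gave the same picture once each nucleus was thinned to 1000 UMIs, so that depth did not enter. Proximal tubule-like nuclei, an epithelium outside the stroma, served as a reference for the level that free RNA may give. Their median depth was 4134 UMIs at E18.5 and 6312.5 at P3, against 3023 and 4098 in the stroma. At E18.5, Meis1 was found in 72.5% of thinned stroma-like nuclei (93.4% unthinned) and 9.79% of thinned proximal tubule-like nuclei, Meis2 in 89.2% (98.4% unthinned) and 25.1%, and Ebf1 in 69.8% (88.2% unthinned) and 7.83%. Zeb2 was found in 73.1% (85.0% unthinned) of stroma-like nuclei, but also in 32.9% of the proximal tubule-like nuclei. Zfp536 was found in 20.4% (30.9% unthinned) and 1.09%, Foxd1 in 3.84% (11.3% unthinned) and 1.52%, Ebf2 in 1.37% (2.59% unthinned) and 0.11%, and Tbx18 in 0.76% (1.97% unthinned) and in 0 of 919 thinned proximal tubule-like nuclei, with an upper limit of 0.401%. At P3 the thinned shares in the stroma ran from 0.83% for Tbx18 to 91.6% for Meis2, and Foxd1 was down to 1.16% (3.33% unthinned), against 0.23% in the proximal tubule-like nuclei. In CPM, the proximal tubule-like level at E18.5 and P3 was 9.44 and 1.47 for Foxd1, 117 and 113 for Meis1, 394 and 247 for Meis2, 103 and 90.7 for Ebf1, 3.87 and 1.57 for Ebf2, 495 and 488 for Zeb2 and 13.1 and 6.82 for Zfp536. Values at or below these levels are read as background in what follows, except for Zeb2. Its level differed among the epithelia, with 149.7 and 185.8 CPM in ureteric-like, 122.5 and 216.7 CPM in loop of Henle-like and 193.5 and 214.4 CPM in distal tubule-like nuclei, so the proximal tubule-like level is no measure of free RNA for this gene. Zfp536 also differed among them, with 32.5 and 26.5 CPM in ureteric-like, 15.0 and 12.2 CPM in loop of Henle-like and 3.65 and 16.1 CPM in distal tubule-like nuclei. Its proximal tubule-like level is therefore an uncertain measure of free RNA.

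Outside the stroma, each factor had its own distribution. Foxd1 was highest in podocyte-like nuclei, with 104.7 CPM [92.9-117.6] at E18.5 and 149.1 CPM [126.0-175.1] at P3, and a UMI was found in 28.2% and 45.7% of them (10.8% and 13.0% after thinning). At E18.5 the order went on with the stroma, then nephron progenitor-like nuclei at 30.7 CPM and early nephron-like nuclei at 20.8 CPM, and each of these steps exceeded counting error. At P3, podocyte-like nuclei were 18.3-fold above the stroma. The stroma, at 8.16 CPM, did not differ beyond counting error from the next class, distal tubule-like nuclei at 5.36 CPM. That class had only 7 UMIs, and the interval of the ratio was 0.716 to 3.87. The remaining named classes were lower, between 1.47 and 3.98 CPM.

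Among the named classes, Meis1 was highest in the stroma at both ages. It was followed at E18.5 by nephron progenitor-like nuclei at 475 CPM and endothelium-like nuclei at 256 CPM, and at P3 by endothelium-like nuclei at 302 CPM. Meis2 was highest not in the stroma but in endothelium-like nuclei, with 4667 CPM [4601-4734] at E18.5 and 5429 CPM [5348-5511] at P3, 1.46-fold and 1.54-fold above the stroma. Nephron progenitor-like nuclei, at 3145 CPM, were within 1.02-fold of the stroma at E18.5. All other named classes held Meis2 at 877 CPM or less at E18.5 and at 855 CPM or less at P3. The unnamed P3 nuclei, with the 760 led by Eya1 among them, have no place in these orders.

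Ebf1 was highest in the stroma, with endothelium-like nuclei next at 1201 CPM at E18.5 and 1829 CPM at P3. In leukocyte-like nuclei it stood at 70.7 CPM at E18.5 and at 609 CPM at P3. The P3 value came mainly from a cluster of 55 nuclei with Ighm and Pax5 among its leading genes, both known from B cells, where Ebf1 was at 2066 CPM [1816-2339] with 248 of the 307 leukocyte UMIs. The other leukocyte-like cluster, 120 nuclei led by the macrophage genes Mrc1 and F13a1, had 154 CPM [117-198].

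Zeb2 was highest in leukocyte-like nuclei at E18.5, with 3105 CPM [2928-3291], 1.27-fold above the stroma [1.19-1.34]. At P3 the 3266 CPM of these nuclei could not be told from the 3273 CPM of the stroma, with an interval of 0.954 to 1.05 for their ratio. Podocyte-like nuclei came next at both ages, with 620 and 532 CPM, against 495 and 488 CPM in proximal tubule-like nuclei. Among the named classes, Ebf2 and Zfp536 were highest in the stroma. For Ebf2 at P3, a cluster of 19 unnamed nuclei, described below, was higher. Zfp536 in endothelium-like nuclei was at 61.0 CPM at E18.5 and 16.4 CPM at P3, and in 1 E18.5 cluster of 96 endothelium-like nuclei it reached 338 CPM, beside 4 raised stromal markers and a median of 5664 UMIs. In the main endothelium-like cluster of 1088 nuclei it was at 12.8 CPM, the background level. Without the clusters outside the stroma that carried 4 or more raised stromal markers, a setting added after seeing the data, the E18.5 ratio of Zfp536 was 23.9.

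**Figure D2:**
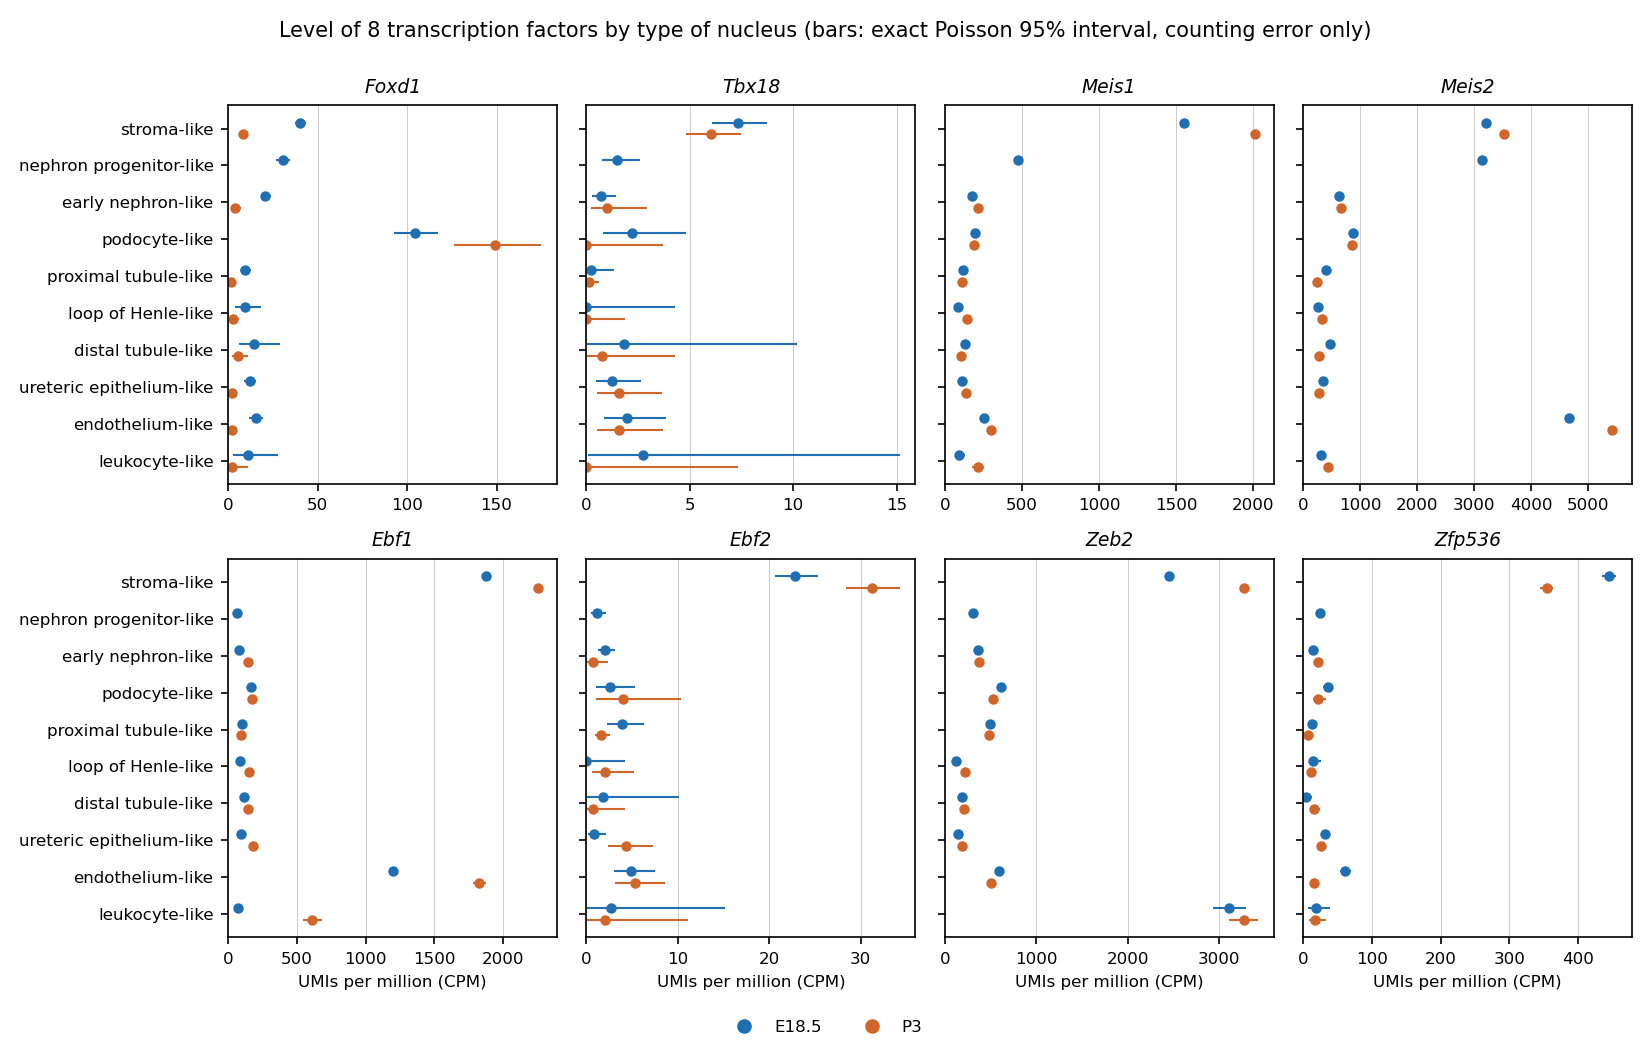
Level of each of the 8 factors in each named class of nuclei at E18.5 (blue) and P3 (orange), in CPM on a linear axis with its own scale for each factor, with 1 point per library and exact 95% Poisson intervals as bars. No class was named nephron progenitor-like at P3. Foxd1 is highest in podocyte-like nuclei, at 104.7 and 149.1 CPM, and Meis2 in endothelium-like nuclei, at 4667 and 5429 CPM, whereas Zfp536, Ebf2, Ebf1 and Meis1 are highest in the stroma.

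A list of 52 genes, made of paralogs and partners of the 8 factors and of other mesenchymal regulators, none of them a member, was followed for context. It held 41 genes of at least 10 CPM at E18.5 and 40 at P3, of which 21 and 25 were at least 2-fold higher in the stroma and 2 and 3 at least 2-fold lower, and 20 genes were higher at both ages. The median log2 ratio of the list was 1.16 at E18.5 and 1.36 at P3, against -0.10 and -0.13 for all genes tested. Because the list holds genes chosen as mesenchymal regulators, these values follow in part from the choice. In the order of their E18.5 ratio, the first were Ebf3, the third gene of the COE family measured here (11.9-fold at E18.5 and 9.99-fold at P3), Runx1t1 (10.2-fold and 12.7-fold), the mesenchymal factor Twist2 (9.80-fold and 18.8-fold), Gata6 (7.34-fold and 10.4-fold), Tshz3, a factor needed for ureter smooth muscle (6.64-fold and 5.42-fold), and the Hedgehog effectors Gli2 (6.44-fold and 18.46-fold) and Gli1 (5.87-fold and 16.1-fold). Further down, Prrx1 was at 3.88-fold and 13.2-fold and the MEIS relative Pknox2 at 3.09-fold and 5.81-fold. Tcf21, a helix-loop-helix factor of stroma and podocytes, was at 2.78-fold and 6.74-fold, and Zeb1, the paralog of Zeb2, at 2.27-fold and 2.56-fold. Gata3, a factor of the collecting duct and also a marker used to name it, was lower in the stroma, at 0.314-fold and 0.247-fold, and Osr2 was at 0.362-fold and 0.204-fold.

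The stroma was then divided. Stroma-like nuclei were clustered again without the 8 factors and the 52 related genes, and zones were named from markers fixed outside the members. At E18.5 and P3 there were 1185 and 545 nuclei like the nephrogenic zone, 1314 and 850 cortical-like, 749 and 416 medullary-like, 605 and 407 papillary-like, 213 and 51 mural-like and 16 and 13 smooth muscle-like nuclei. The remaining stroma-like nuclei were proliferating, 737 and 297, or unnamed, 166 and 450. Medullary-like nuclei also raised the papillary marker Lef1 and papillary-like nuclei the medullary markers Cdkn1c and Wnt4, so that the markers of these 2 zones overlapped. Mural-like and smooth muscle-like groups were small, and their values carry wide intervals.

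All 7 factors that reached 10 CPM in a zone differed by at least 1.5-fold between the highest and the lowest of the 5 zones with at least 50 nuclei, but so did 60% of all genes at E18.5 and 79% at P3. At 4-fold, a limit added after seeing the data, 5 of the 7 passed at both ages, against 10.9% and 23.9% of all genes. Meis1 and Meis2 were the 2 that did not, with ranges of 2.86-fold and 2.95-fold at E18.5. Zeb2 passed at P3 with 4.20-fold against mural-like nuclei, and its interval of 3.67 to 4.83 took in values under the limit. Ebf2 at E18.5 was set against 1 UMI in papillary-like nuclei, with a lower limit of 16.2-fold. Zfp536 at P3 was set against 3 UMIs in mural-like nuclei, with a lower limit of 20.4-fold. At P3, Foxd1 passed against mural-like nuclei without a UMI, where 3 UMIs would be 15.4 CPM, and against medullary-like nuclei it was 7.17-fold higher in the nephrogenic zone [3.03-20.6].

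Among the named zones, Foxd1 was highest in the nephrogenic zone. It stood there at 80.9 CPM [72.1-90.6] at E18.5, against 31.3 CPM in cortical-like, 26.5 CPM in medullary-like, 11.9 CPM in mural-like and 10.3 CPM in papillary-like nuclei. Cortical-like and medullary-like nuclei did not differ beyond counting error, and the mural-like and papillary-like values were close to the proximal tubule-like level of 9.44 CPM. The nephrogenic zone held 45.4% of the Foxd1 UMIs of the stroma [41.6-49.3] and 22.6% of all its UMIs. At P3 the first 3 zones came in the same order, with 20.4 CPM [14.7-27.6] in the nephrogenic zone, 10.9 CPM in cortical-like and 2.85 CPM in medullary-like nuclei, 2 UMIs in papillary-like nuclei and none in mural-like nuclei. An unnamed sub-cluster led by Ebf2, described below, had a higher Foxd1 level than the nephrogenic zone at both ages, though at P3 within counting error. It held 56 Foxd1 UMIs in 2.63% of the stromal nuclei at E18.5, and 8 in 1.42% at P3.

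Within the nephrogenic zone, Foxd1 differed between sub-clusters. At E18.5 a sub-cluster of 290 nuclei with Ntn1 and Rspo3 among its leading genes had 125.6 CPM [104-151], against 66.3 CPM [57.2-76.5] in the other sub-cluster, 895 nuclei with Gdnf and Aldh1a2 among its leading genes. At P3 a sub-cluster of 43 nuclei, again with Ntn1 among its leading genes, had 135 CPM [82.8-209] from 20 UMIs, against 11.5 CPM [7.23-17.5] in the 502 nuclei of the other. Thus, 20 of the 116 Foxd1 UMIs of the P3 stroma were in 1.42% of its nuclei. The level in the 502 nuclei was close to the 10.9 CPM of cortical-like nuclei, so the lead of the zone at P3 rested on the 43 nuclei.

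Meis1 and Meis2 were also highest in the nephrogenic zone, with smaller steps between the zones. Meis1 was at 2381 CPM in the nephrogenic zone, 1396 CPM in cortical-like, 1308 CPM in medullary-like, 842 CPM in papillary-like and 832 CPM in mural-like nuclei at E18.5, and at 2865, 2103, 1648, 1086 and 877 CPM in the same zones at P3. The papillary-like and mural-like levels could not be told apart at E18.5. Smooth muscle-like nuclei were at 1462 and 1451 CPM, within counting error of the cortical-like level at E18.5 and of the medullary-like level at P3. Meis2 was at 4597, 2996, 3094, 1560 and 2595 CPM at E18.5 and at 4900, 3681, 3205, 1816 and 2702 CPM at P3 in the same zones. At E18.5 medullary-like nuclei were thus slightly above cortical-like nuclei, at 1.03-fold [1.003-1.06]. Papillary-like nuclei were the lowest of these 5 zones at both ages, with 0.521-fold [0.502-0.540] and 0.493-fold [0.477-0.510] the cortical-like level. Smooth muscle-like nuclei were at 2162 CPM at E18.5, above the papillary-like level, and at 1374 CPM at P3, below it.

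Zeb2 had the opposite pattern at the rim. At E18.5 it was at 418 CPM [398-439] in the nephrogenic zone, between the 495 CPM of proximal tubule-like and the 149.7 CPM of ureteric-like nuclei, and at 3546 CPM [3487-3605] in cortical-like nuclei, 8.48-fold higher [8.05-8.94]. Medullary-like nuclei were at 3276 CPM, papillary-like at 3068 CPM and mural-like at 1902 CPM. After thinning, 23.7% of the nephrogenic zone nuclei (47.1% unthinned) had a Zeb2 UMI, against 94.1% of the cortical-like (99.4% unthinned) and 32.9% of the proximal tubule-like nuclei (74.4% unthinned). At P3, Zeb2 was at 1481 CPM [1429-1534] in the nephrogenic zone, at 4608 CPM in cortical-like nuclei, 3.11-fold higher [2.99-3.24], and at 3550, 3479 and 1097 CPM in medullary-like, papillary-like and mural-like nuclei. The nephrogenic zone held only 3.86% of the stromal Zeb2 UMIs at E18.5 and 6.54% at P3.

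Among the interstitial zones, Zfp536 was highest in the inner ones. It was at 1267 CPM [1222-1312] in medullary-like and 1019 CPM [980-1059] in papillary-like nuclei at E18.5, against 152 CPM [140-165] in cortical-like nuclei and 11.2 CPM in the nephrogenic zone, where the proximal tubule-like level was 13.1 CPM. The ratio of medullary-like nuclei to the nephrogenic zone was 113 [83.3-157] at E18.5 and 34.9 [26.6-46.6] at P3, with 917 CPM [876-959] against 26.3 CPM. A thinned UMI was found in 60.0% (82.1% unthinned) of medullary-like nuclei at E18.5 and 47.0% (75.7% unthinned) at P3, and in 1.44% and 2.77% of the nephrogenic zone. Medullary-like nuclei held 41.5% of the stromal Zfp536 UMIs at E18.5 and 38.3% at P3, and papillary-like nuclei 35.0% and 32.0%. Smooth muscle-like nuclei, with 1194 CPM [907-1544], could not be told from either at E18.5. At P3 they were the highest zone, with 1928 CPM [1570-2343], 2.10-fold [1.70-2.57] above medullary-like nuclei. Proliferating nuclei were in between, at 377 and 274 CPM.

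Papillary-like nuclei were not uniform in Zfp536. The sub-clusters led by Nrxn3 had 1107 CPM in 546 nuclei at E18.5 and 985 CPM in 225 nuclei at P3. A sub-cluster of 141 nuclei led by Nkain2 at P3 had 235 CPM [206-267]. The sub-clusters led by Ranbp3l, 59 and 41 nuclei, had 131 CPM [88.3-187] and 47.3 CPM [25.8-79.3]. Zeb2 hardly differed among the same sub-clusters, between 2605 and 3114 CPM at E18.5 and between 3096 and 3837 CPM at P3. At P3, 72 unnamed nuclei with raised smooth muscle markers and Cldn11 were at 1763 CPM for Zfp536, whereas 335 unnamed nuclei with raised Alx1 and Penk, markers of the medullary zone, were at only 74.7 CPM.

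**Figure D3:**
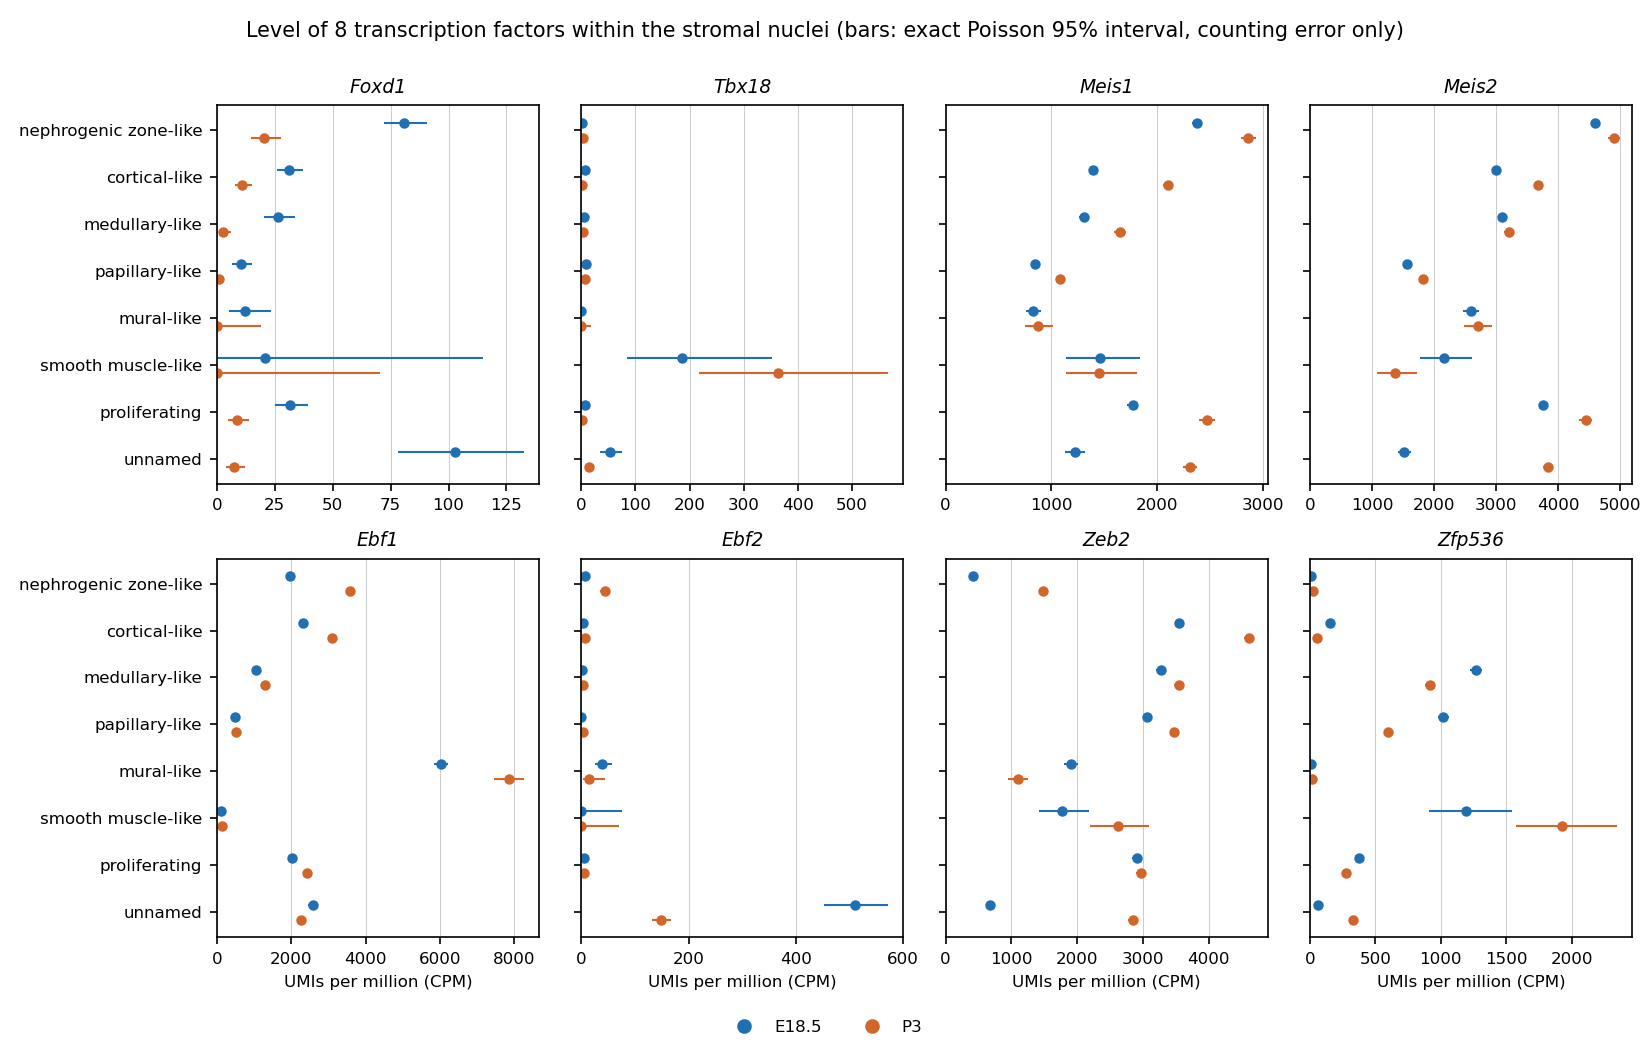
Level of each of the 8 factors in the zones of the stroma at E18.5 (blue) and P3 (orange), in CPM on a linear axis with its own scale for each factor, with 1 point per library and exact 95% Poisson intervals as bars. Among the named zones, Zfp536 climbs from 11.2 CPM in the nephrogenic zone to 1267 CPM in medullary-like nuclei at E18.5, Foxd1 runs the other way from 80.9 to 10.3 CPM in papillary-like nuclei, and Ebf1 is highest in mural-like nuclei.

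Ebf1 was highest in mural-like nuclei, a group named from genes of pericytes and renin cells. It was there at 6027 CPM [5842-6215] at E18.5 and 7850 CPM [7461-8253] at P3, 2.60-fold [2.51-2.70] and 2.54-fold [2.41-2.69] above cortical-like nuclei. It decreased toward the papilla, from 2315 CPM in cortical-like to 1051 CPM in medullary-like and 480 CPM in papillary-like nuclei at E18.5, and from 3085 to 1291 and 503 CPM at P3. In smooth muscle-like nuclei it was at 103 CPM [33.4-240] and 134 CPM [53.7-275], within counting error of the proximal tubule-like level. Mural-like nuclei thus had Ebf1 at its highest beside Zfp536 at 11.9 and 15.4 CPM, whereas smooth muscle-like nuclei had Zfp536 at its highest or close to it. At P3 the mural-like nuclei split into 19 nuclei led by Dkk2, with 10874 CPM of Ebf1, and 32 led by Ren1, with 6007 CPM.

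Tbx18 was highest in smooth muscle-like nuclei, with 185 CPM [84.7-352] from 9 UMIs at E18.5 and 363 CPM [218-566] from 19 UMIs at P3. These 16 and 13 nuclei held 7.44% and 22.1% of the stromal Tbx18 UMIs and 0.294% and 0.368% of all stromal UMIs. In the other named zones it was between 0 and 8.29 CPM at E18.5 and between 0 and 6.33 CPM at P3, and no pair of neighbors in that order differed beyond counting error. Some zones further apart in the order did. Papillary-like nuclei at P3 were 10.4-fold above cortical-like nuclei, with 17 and 2 UMIs. Cortical-like nuclei were at 2.86-fold the nephrogenic zone level at E18.5 and at 0.156-fold at P3. A further 24.8% and 34.9% of the stromal Tbx18 UMIs were in unnamed stroma-like nuclei.

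Ebf2 was the most concentrated of the 8. An unnamed sub-cluster led by Ebf2, Sntg1 and Col6a6, with Igf1, Tnxb and the adipocyte precursor gene Dlk1 also among its leading genes, held 131 nuclei at E18.5, 2.63% of the stroma, and 293 of 378 Ebf2 UMIs (77.5%). A sub-cluster led by Ebf2, Sntg1 and Fgf10 at P3 held 43 nuclei, 1.42% of the stroma, and 297 of 444 UMIs (66.9%), at 1484 CPM [1320-1663]. Ebf2 itself had been left out of the clustering, and it was found as a leading gene afterwards. Foxd1 was at 125.2 CPM [94.6-163] and Tbx18 at 55.9 CPM [36.2-82.5] in the E18.5 sub-cluster, and at 40.0 and 60.0 CPM in that of P3. Ebf1 was at 2964 CPM and 6907 CPM. When unnamed stromal sub-clusters were left out, a setting added after seeing the data, the ratio of Ebf2 in the stroma to the other nuclei was 2.44 at E18.5 and 4.63 at P3. Among the named zones, Ebf2 was at 38.8 CPM [25.4-56.9] in mural-like nuclei at E18.5 and at 44.3 CPM [35.6-54.4] in the nephrogenic zone at P3. Outside the stroma, a cluster of 19 unnamed P3 nuclei, with the fat genes Plin1, Cd36 and Pparg among its leading genes, held 376 Ebf2 UMIs, 3148 CPM [2838-3483].

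**Figure D4:**
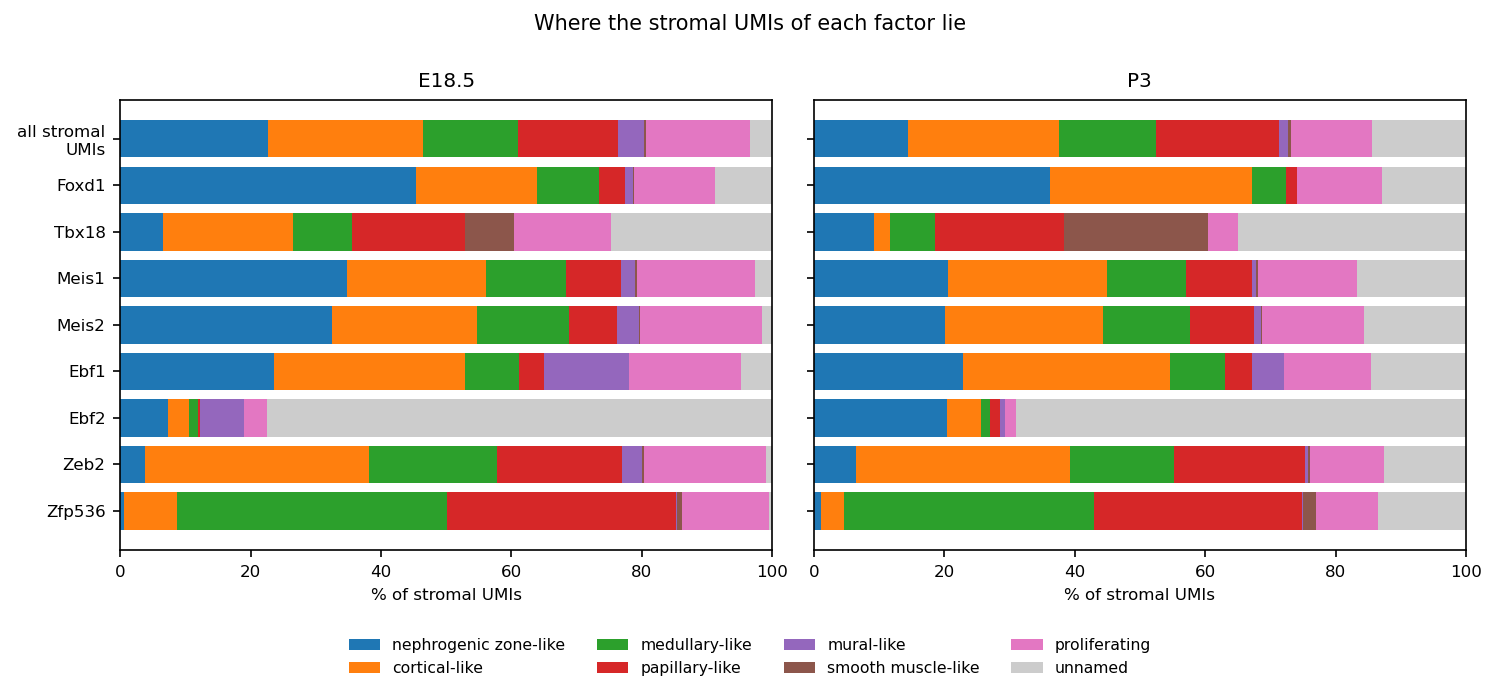
Share of the stromal UMIs of each factor that lay in each zone, in percent, at E18.5 and P3, beside the share of all stromal UMIs. The nephrogenic zone holds 45.4% of the Foxd1 UMIs but 3.86% of the Zeb2 UMIs at E18.5, medullary-like nuclei hold 41.5% of the Zfp536 UMIs, and unnamed nuclei hold 77.5% of the Ebf2 UMIs.

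The contrasts between zones, read against all genes, placed the 8 factors as follows. From the nephrogenic zone to medullary-like nuclei, Zeb2 (7.84-fold and 2.40-fold) and Zfp536 were at least 2-fold higher at both ages, as were 4.66% of genes of at least 10 CPM at E18.5 and 3.99% at P3. Foxd1 was at least 2-fold lower at both ages, at 0.327-fold [0.246-0.430] and 0.139-fold [0.0485-0.330], as were 5.74% and 6.83% of genes. Ebf1, at 0.362-fold, and Ebf2, at 0.0644-fold from 6 UMIs in medullary-like nuclei, were at least 2-fold lower at P3 only. At E18.5, Ebf1 was at 0.538-fold and Ebf2 was under 10 CPM in both zones. From the nephrogenic zone to cortical-like nuclei, Zeb2 and Zfp536 were at least 2-fold higher at both ages, as were 4.7% and 3.07% of genes. Zfp536 was higher by 13.6-fold [9.91-19.0] at E18.5 and 2.09-fold [1.53-2.88] at P3. This ratio of Zfp536 was between 4.96 and 17.9 at E18.5 over the settings run. At P3 it was under 2-fold with doublets kept (1.64), with 1000 variable genes (1.15) and with the factors left in the clustering (1.88), and with Leiden clusters its direction turned (0.961). From cortical-like to papillary-like nuclei, Zfp536 was 6.70-fold and 10.9-fold higher, where 5.78% and 6.04% of genes were at least 2-fold higher. Ebf1 was at 0.207-fold [0.195-0.220] and 0.163-fold [0.154-0.173]. Foxd1 was at 0.328-fold and 0.0683-fold, with 26 and 2 UMIs in papillary-like nuclei. Meis2 was at least 2-fold lower at P3 only, at 0.493-fold. Of all genes, 4.68% and 7.02% were at least 2-fold lower. From cortical-like to mural-like nuclei, Ebf1 and Ebf2 were at least 2-fold higher at both ages, as were 6.14% and 15.4% of genes. For Ebf2 the levels were 38.8 against 3.05 CPM at E18.5. At P3 they were 15.4 against 6.96 CPM, from 3 UMIs in mural-like nuclei and within counting error.

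Whether 2 factors were found in the same nuclei was described for the 28 pairs, with each nucleus thinned to 1000 UMIs. In 4974 stroma-like nuclei at E18.5, 2 pairs were found together more often, and 5 less often, than the product of their shares, beyond the counting interval, and in 3022 nuclei at P3 1 pair and 2 pairs. Ebf1 and Zfp536 were found together 0.641 times [0.583-0.704] as often as that product at E18.5 and 0.669 times [0.590-0.757] at P3, and Zeb2 and Zfp536 1.26 times [1.18-1.34] and 1.08 times [0.988-1.19] as often, the last within counting error. When the product was taken within each zone, Ebf1 with Zfp536 at E18.5 was the only pair left, at 0.839 times [0.763-0.921], and the pair of Zeb2 with Zfp536 was at 1.01 times. Named zones were taken whole here, with all proliferating nuclei as 1 group and papillary-like sub-clusters of unlike Zfp536 level together. Whether such mixing gave the remaining deficit was not tested.

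The ages were compared last. Over 10915 genes of at least 10 CPM in the stroma, the median gene was lower at P3, by a log2 difference of -0.16 (0.895-fold), and the ratios of P3 to E18.5 given here are relative to the median gene of the same nuclei unless stated otherwise. Before that correction, 1 of the 8 factors, Foxd1, differed by at least 1.5-fold in either direction between the ages in the stroma, against 31.3% of all genes. A change of that size was therefore common, and the count says nothing particular about the 8. Relative to the median gene, Ebf2 also reached that size, at 1.53-fold [1.33-1.75]. Without that correction the Ebf2 ratio was 1.37, and over the settings run it was between 0.462, with Leiden clusters, and 2.69, with zones weighted as at E18.5, so that its direction depended on the clustering. The summed level of 5 erythroid markers, which no stromal cell makes, was 705 CPM in stroma-like nuclei and 632 CPM in the other named nuclei at E18.5 and 117 and 104 CPM at P3. With the proximal tubule-like level subtracted at each age, the unadjusted ratios of P3 to E18.5 were 1.32 for Meis1, 1.56 for Ebf2 and 0.804 for Zfp536, against 1.30, 1.37 and 0.795 without.

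Foxd1 in stroma-like nuclei was at 40.3 CPM at E18.5 and 8.16 CPM at P3, at 0.226-fold relative to the median gene [0.184-0.275]. It was lower at P3 in the nephrogenic zone, at 0.272-fold [0.192-0.376], in cortical-like nuclei, at 0.384-fold [0.257-0.561], and in medullary-like nuclei, at 0.122-fold [0.0433-0.282]. Within the nephrogenic zone, the sub-cluster with the most Foxd1, with Ntn1 among its leading genes, had a similar level at both ages. The other sub-cluster had a lower level at P3, with 22 Foxd1 UMIs in 502 nuclei, against 187 in 895 nuclei at E18.5. The sub-cluster with the most Foxd1 held 290 of the 1185 nuclei of the zone at E18.5 and 43 of the 545 at P3. The part of this make-up in the difference was not tested. The level of Foxd1 in nuclei that should lack it was also lower, from 9.44 to 1.47 CPM in proximal tubule-like, from 12.002 to 2.19 CPM in ureteric-like and from 15.4 to 1.89 CPM in endothelium-like nuclei. After the same subtraction the unadjusted ratio in the stroma was 0.216, against 0.202 without. In podocyte-like nuclei Foxd1 was higher at P3, at 1.59-fold [1.30-1.95]. The papillary-like nuclei, with 26 and 2 UMIs, were at background at both ages, and no change is read from them. The markers of the nephrogenic zone were also lower at P3, Ntn1 from 899 to 272 CPM and Gdnf from 238 to 93.0 CPM in the nuclei so named, and their part in the Foxd1 difference was not tested.

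Meis1, Meis2, Ebf1 and Zeb2 were higher at P3 in the stroma as a whole, at 1.45-fold, 1.23-fold, 1.34-fold and 1.49-fold. Meis1 was higher in each of the 4 interstitial zones, between 1.30-fold in the nephrogenic zone and 1.66-fold in cortical-like nuclei. Zeb2 was at 3.81-fold [3.59-4.05] in the nephrogenic zone and between 1.23-fold and 1.43-fold in the cortical-like, medullary-like and papillary-like nuclei. The nephrogenic zone sub-cluster with the most Foxd1 had 227 Zeb2 UMIs in 290 nuclei at E18.5 and 43 in 43 nuclei at P3. The other had 1338 in 895 nuclei and 3001 in 502 nuclei. The part of each sub-cluster in the zone ratio was not tested. In mural-like nuclei Zeb2 was at 0.630-fold [0.542-0.729], but these differed in make-up between the ages. All 213 at E18.5 were in a sub-cluster led by Dkk2, whereas at P3 32 were in one led by Ren1. An E18.5 sub-cluster of 22 nuclei with Ren1 among its leading genes stayed unnamed and is not part of the 213. The 19 led by Dkk2 at P3 held 126 of the 214 Zeb2 UMIs of the mural-like nuclei. The part of this make-up in the ratio was not tested. After thinning, a Zeb2 UMI was found in 23.7% of the nephrogenic zone nuclei at E18.5 and 62.5% at P3 (47.1% and 86.1% unthinned). In that zone 5 of the 8 factors differed by at least 1.5-fold before the correction with at least 10 CPM, against 38.9% of all genes, and Ebf1 was at 1.97-fold [1.90-2.03] and Ebf2 at 6.37-fold [4.13-10.1]. For Ebf2, the thinned share of nuclei was 1.02% at E18.5 and 1.29% at P3. At P3 the main nephrogenic zone sub-cluster of 502 nuclei also had raised mural markers, Pdgfrb, Abcc9, Kcnj8 and Cspg4, which that of E18.5 did not, and their part in these differences was not tested.

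Zfp536 was lower at P3 in the stroma as a whole, at 0.888-fold [0.857-0.921]. The zones differed in this. In cortical-like nuclei it was at 0.397-fold [0.334-0.470], with 152 and 54.8 CPM, in papillary-like nuclei at 0.681-fold [0.639-0.725] and in medullary-like nuclei at 0.825-fold [0.779-0.873]. Sorcs3 was among the leading genes of the E18.5 medullary-like nuclei. At P3, 335 nuclei led by Sorcs3, with 116 Zfp536 UMIs, stayed unnamed and are not part of the 416 medullary-like nuclei. The part of this naming in the medullary-like ratio of Zfp536 was not tested. In the nephrogenic zone Zfp536 was at 2.52-fold [1.65-3.87], from 11.2 CPM, a background level, at E18.5 to 26.3 CPM at P3. Ureteric-like nuclei were at 32.5 CPM at E18.5 and 26.5 CPM at P3, so neither level in the zone was above theirs. Tbx18 was at 0.923-fold [0.692-1.23] in the stroma, within counting error of no difference.

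**Figure D5:**
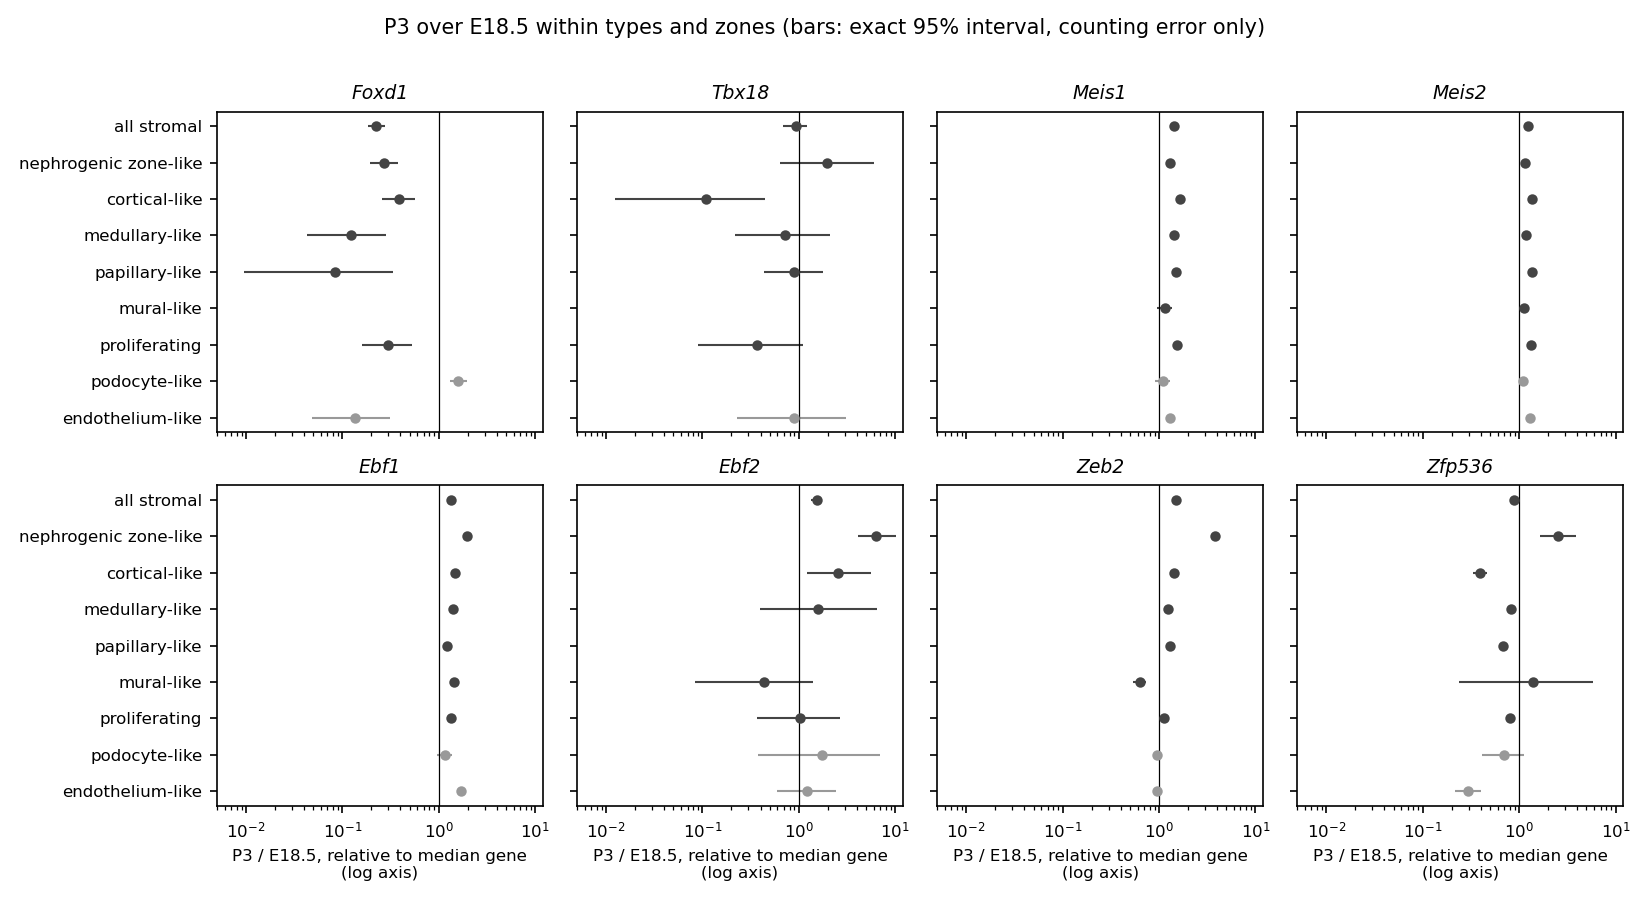
Ratio of the CPM at P3 to that at E18.5 for the 8 factors in the stroma, its zones and other classes of nuclei, relative to the median gene of the same nuclei, on a log axis; stromal nuclei are in black and other classes in grey, and a ratio with no UMI at 1 age or fewer than 10 in all is left out. Bars are exact 95% intervals of counting error; Foxd1 is at 0.226 in the stroma and 1.59 in podocyte-like nuclei, and Zeb2 is at 3.81 in the nephrogenic zone.

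Finally, the genes most like each factor were looked up over the clusters of at least 50 nuclei, 26 at E18.5 and 31 at P3, with the lower of the 2 Pearson correlations of log2(CPM + 10) as the measure, over 12187 genes. Clusters of 1 library share depth and free RNA, and the correlations are descriptions. Meis1 was followed most closely by Gm16141 (0.94), Egflam (0.94) and the Hedgehog effector Gli2 (0.94), Meis2 by Zeb1 (0.93), G630016G05Rik (0.93) and Ttc28 (0.92), and Ebf1 by Gm12158 (0.92), Plscr4 (0.86) and Zeb1 (0.86). G630016G05Rik starts 1385 bp from Meis2 on the other strand and does not overlap it in the annotation. Gm16141 and Gm12158 are annotated antisense inside Meis1 and Ebf1. The use of strand is not given, so reads of these 2 genes may not be told from those of their hosts. Their levels in the stroma were small beside those of the hosts, 52.4 and 32.0 CPM for Gm16141 and 35.7 and 15.5 CPM for Gm12158.

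Zfp536 was most like Lrriq1, Alx1 and Cpa6 (all 0.89). Alx1 was a marker used to name the medullary zone, and it lies 15815 bp from Lrriq1. Zeb2 was most like the scavenger receptor gene Colec12 (0.84), Kcnip3 (0.83) and Snx18 (0.83), Tbx18 like Fndc1 (0.82), the microfibril gene Mfap5 (0.82) and Col6a6 (0.80), Foxd1 like 2810433D01Rik (0.76), Foxd2os (0.74) and Zbtb7c (0.73), and Ebf2 like its paralog Ebf3 (0.61), Il1rapl2 (0.56) and Piezo2 (0.55). Among the 8 themselves, Meis1 and Meis2 were the most alike, at 0.84 at E18.5 and 0.83 at P3, and Zeb2 with Zfp536 was at 0.72 and 0.71, whereas Foxd1 with Zfp536 was at -0.05 and -0.01.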

How the data were processed

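Nuclei from pooled mouse kidneys were measured in 1 library at E18.5 and 1 at P3 on the 10x Genomics Chromium 3′ platform. The authors deposited raw counts of UMIs for every gene and barcode, made with Cell Ranger. The submitters' processing notes name release 5.0.1 and mm10 for both libraries, whereas the matrix headers state release 7.0.0 for E18.5 and 5.0.1 for P3. Whether intronic reads and strand were used in counting is not given in the sources used here. If introns were counted, long genes gained more UMIs than short genes, so levels were compared only within a gene. Between the ages this rule is no safeguard. If introns were counted in only 1 of the libraries, the ratio of P3 to E18.5 would change by a different amount for each gene. This was not tested. The labels give a mixed background for E18.5 and C57BL/6J for P3, and the methods of the study give a mixed background for both.

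Of 21600 and 12216 barcodes, 21270 and 11765 were within quality limits (3 median absolute deviations on log UMIs and genes and on the mitochondrial share, with a minimum difference of 0.5 percentage points). Doublets called with scrublet in scanpy 1.11.5 (16.4% and 16.8%) were removed. For clustering only, size factors came from scran 1.30.0 (R 4.3.3), and nuclei were grouped on 2000 variable genes without the 8 factors and 52 related genes, 50 principal components and 10 neighbors (bluster 1.12.0, igraph 2.1.4 Walktrap). A marker was raised at 10 UMIs and 2-fold (1.5-fold for zones) over the other nuclei with 10 CPM added, and a name needed 3 raised markers. The marker lists, the list of 52 genes and the members were chosen with earlier results of these data known, and the naming rule was set after clusters had been seen. Python 3.11.15, numpy 2.4.6, scipy 1.17.1, pandas 2.3.3 and matplotlib 3.10.9 served all later steps, and the scripts were tested on simulated data.

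UMIs were summed per group of nuclei. Ratios have exact conditional binomial intervals, levels exact Poisson and shares exact Clopper-Pearson intervals, all at 95% and for counting error only. No test between groups was made, since each age has 1 library. Genes named are the 8 factors, the related genes higher at both ages in order of their E18.5 ratio, naming markers, leading genes of sub-clusters and the 3 genes most like each factor. Prrx1, Pknox2, Tcf21, Zeb1, Gata3, Osr2 and the leading genes of clusters outside the stroma were named after their values were seen, and 1 gene of the related list is not reported here by name. Alternatives were doublets kept, Leiden clusters, 20 neighbors, 1000 variable genes, linear quality limits, members left in the clustering, other level definitions, unnamed nuclei among the others, no or another thinning depth and stricter zone markers, and 7 more were chosen after seeing the data. Coordinates follow GENCODE vM21 (mm10).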

Additional observations from a re-analysis of the deposited data

Results flagged for a closer look

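For some factors the difference between nuclei groups pointed one way in one age or group and the other way in another. None of these differences was tested, since each age has 1 library, and the values are given without an explanation. Ebf1 in cortical-like nuclei was at 1.18-fold its level in the nephrogenic zone at E18.5 and at 0.864-fold at P3. Tbx18 in the same comparison was at 2.86-fold at E18.5 and at 0.156-fold at P3, where the cortical-like nuclei had 2 UMIs and the nephrogenic zone 8. Meis2 in medullary-like nuclei was at 1.03-fold the cortical-like level at E18.5 and at 0.871-fold at P3.

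Between the ages, Foxd1 relative to the median gene was at 1.59-fold at P3 in podocyte-like nuclei and at 0.0839-fold in papillary-like nuclei, which rests on 2 and 26 UMIs at the background level. Zeb2 was at 3.81-fold in the nephrogenic zone and at 0.630-fold in mural-like nuclei, whose sub-clusters differed between the ages. Of the 3044 Zeb2 UMIs of the nephrogenic zone at P3, 3001 were in its sub-cluster of 502 nuclei. Zfp536 was at 2.52-fold in the nephrogenic zone, where its level was not above that of ureteric-like nuclei at either age, and at 0.397-fold in cortical-like nuclei.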

How the results depend on the processing

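No paired analysis was possible because each age has 1 library, and for the same reason no replicate could be left out. Of the counts of factors, related genes and pairs under the alternatives, 80 stayed within 1.5 times the value reported and 8 did not. The factors past 1.5-fold between the ages were 1 as reported and 2 with called doublets kept, with Leiden clusters, with the proximal tubule-like level subtracted, after division by the median gene, or without proliferating and unnamed stromal nuclei, and 3 with zones weighted as at E18.5. Pairs found together more or less often than the product of their shares, beyond counting error, were 7 at E18.5 and 11 with Leiden clusters, and 3 at P3 and 5 without thinning. Factors at least 2-fold higher in the stroma were 6 instead of 7 at E18.5 in the 5 settings that took Meis2 under the limit, and 6 at P3 with unnamed nuclei among the others, where Ebf2 was at 1.99-fold.

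Of values of single factors, 421 moved by less than counting error, 246 by more and 5 turned in direction. Ebf1 in cortical-like nuclei against the nephrogenic zone at P3 was at 1.03-fold with doublets kept and at 1.03-fold with 1000 variable genes. Zfp536 in the same comparison was at 0.961-fold with Leiden clusters. Ebf2 at P3 against E18.5 was at 0.462-fold with Leiden clusters, and Ebf2 in papillary-like against cortical-like nuclei at E18.5 was at 1.45-fold with the factors left in the clustering. The cause was not tested.

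Foxd1 at P3 against E18.5 stayed between 0.184 and 0.249 in all settings run. Zfp536 in medullary-like nuclei against the nephrogenic zone was between 55.6 and 113 at E18.5 and between 34.9 and 110.3 at P3, in settings that named a medullary zone, which Leiden clusters, 20 neighbors and members left in did not at either age and 1000 variable genes did not at P3. Zeb2 in cortical-like nuclei against the nephrogenic zone was between 8.48 and 12.02 and between 2.93 and 4.42. Subtraction of the proximal tubule-like level gave no value for 8 results whose lower group fell to 0 or below. Depth limits Tbx18, Ebf2 and Foxd1 at P3 most, with 86, 444 and 116 UMIs in the stroma.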
